A study of Ovis aries with 16 samples.

Results

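Angiotensin II type 1 (AT1) receptor blockade was examined in the left ventricle of late-gestation fetal sheep by setting 4 fetuses infused with losartan against their 4 untreated twins, 8 of the 16 arrays of the series. The members were chosen by sample label, and each losartan fetus was paired with its co-twin by the twin set recorded for both, sets 1 to 4. The other 8 arrays hold 4 fetuses given angiotensin II and their 4 untreated twins, sets 5 to 8. All were twin sheep fetuses (Ovis aries); catheters were placed in fetal femoral vessels at 125 to 126 days of gestation, with term at 145 days, and treatment lasted 5 days. The twins in the comparison are recorded as receiving no infusion, so effects of losartan and of being infused cannot be told apart, and the sources used here do not say whether they carried catheters. The infusion is described as daily in some records and as continuous in others, and the tissue as left ventricular free wall in some and as free wall with septum in others. Dose, breed and fetal sex were not stated. The submitters gave RNA integrity numbers from 7.5 to 10.

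Angiotensin II acts on the heart through 2 receptors, AT1 and AT2. AT1 is coupled to Gq proteins and drives vasoconstriction, aldosterone release and growth of cardiac muscle and fibroblasts, and losartan occupies it without activating it. Near term the ovine heart still grows in part by division of its muscle cells, and both receptors are expressed in it. The tissue is a mixture of muscle cells, fibroblasts, vascular and blood cells, so fewer cells of a type and less RNA per cell cannot be told apart in any of the differences below.

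Of the 21 named genes that passed the test described below, 7 belong to the cell cycle, and INHBA, the gene of the activin A chain, had the smallest adjusted p among them. The 60-base probes of 3 of these genes are shown because their calls were present whichever twin set was left out. Each is printed 5′ to 3′. The longest run without a stop codon in any frame was 20 codons for CDK1, 19 for CCNA2 and 20 for INHBA. That frame need not be the coding one, and another frame of the INHBA probe meets the stop codon TAG near its end.
CDK1: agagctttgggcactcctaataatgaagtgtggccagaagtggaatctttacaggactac
CCNA2: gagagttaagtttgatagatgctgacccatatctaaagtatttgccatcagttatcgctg
INHBA: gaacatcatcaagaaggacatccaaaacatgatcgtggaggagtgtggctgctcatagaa
The last 30 bases of 4 cathelicidin probes are shown next, because these peptides are encoded by a family of similar genes and the results below turn on whether the probes can be told apart. Capitals mark the hexamer AATAAA, the polyadenylation signal, searched on the printed strand only and present in the last 30 bases of 4.76% of all 8970 tested probes.
CATHL3: gacggtgaaaAATAAAttctggtgaagaca
CATHL1B: tggatctgaaaAATAAActcttgtgacatg
BAC5: agtcagcatccaaaaAATAAAatcttgtgg
SC5: tgagaAATAAAttcttgtgagaacaaattc
The longest run shared by any pair of the 4 whole probes was 12 bases, between CATHL3 and SC5.

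Levels are given as log2 intensity relative to the 75th percentile of the same array, so they can be compared between arrays for 1 probe and not between probes. That percentile ranged from 1099 to 1670 intensity units over the 16 arrays, and 57.3% to 64.1% of 15008 probes were well above background. Of the 15008 probes, 8970 were tested, 866 of them with a gene name, for 567 genes. Each slide held 8 arrays and was scanned once. In sets 2 and 3 the losartan fetus and its twin lay on the same slide, whereas in sets 1 and 4 the losartan fetus was on slide 2 and its twin on slide 1. The array of the untreated twin of set 2 stood apart from the rest of the series along the first principal component, together with 2 arrays of angiotensin II fetuses, and its bright corner spots read 17.7 on the log2 scale against 14.6 to 15.3 on the other 7 arrays of the comparison. Values of set 2 are therefore given beside those of the other sets, and results are also given with the slide as a further term in the fit.

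With losartan, 109 of the 8970 probes passed an adjusted p of 0.05 in limma, 1.22% of those tested. Of these, 89 were lower in losartan fetuses (0.992% of all tested) and 20 higher (0.223%). The median change was -1.32 on the log2 scale among the lower probes and 0.85 among the higher ones, against 0.01 over all tested probes. All 109 moved in 1 direction in 4 of 4 twin sets, and for 97 of them the 4 losartan levels did not overlap the 4 twin levels. Over all probes tested, 11.1% were lower and 10.5% higher in 4 of 4 sets, and 6.83% had groups that did not overlap. Since the 109 were selected on these same differences, both of their counts are a description. Without twin set 3 the count was 33, without set 4 it was 49, without set 1 it was 64 and without set 2 it was 98. With the slide as a further term 71 probes passed (0.792%), 6 of them higher, and 58 of the 71 were among the 109. A fit that ignored the twin sets called 0 probes in limma, with 774 at an unadjusted p under 0.05. Among the 567 named genes, 19 passed by their brightest probe (3.35%), 15 lower and 4 higher, and 2 more, MTHFD2 and PTGER3, passed only by another probe.

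The measured genes of mitosis fell in losartan hearts. Only 4 of the 39 genes on that list were measured, and all 4 passed the test, of 567 named genes of which 2.65% were called lower. When probes had to be above background on all 16 arrays, CCNB1 alone of the list was left. CCNB1, the cyclin B1 subunit that triggers entry into mitosis, read -1.75, -1.48, -2.42 and -3.43 in the losartan fetuses of sets 1 to 4 and -0.05, -0.06, -0.40 and 0.20 in their twins. The lowest level of any twin lay above the highest of any losartan fetus, and the gap was widest in set 4. The fitted difference was -2.19 ± 0.30 on the log2 scale (SE with the spread pooled over sets 1 to 8, adjusted p = 0.00855), a 4.58-fold lower level. The 4 pair differences themselves had an SD of 0.99, and CCNB1 did not pass when sets 1 to 4 were fitted alone.

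CDK1, the kinase that cyclin B1 activates, read -2.75, -3.05, -3.47 and -4.09 with losartan and -1.16, -1.52, -1.33 and -1.07 in the twins. Here too every losartan fetus lay below every twin, but only 2 of the 4 losartan arrays were well above background, against 4 of 4 twins. The difference was -2.07 ± 0.22 (adjusted p = 0.00238). HMMR, the hyaluronan-mediated motility receptor that also acts at the mitotic spindle, was measured by 2 probes that share no more than 6 bases in a row. Its brighter probe read 1.55, 1.07, 0.54 and 0.62 with losartan and 2.70, 2.08, 2.41 and 2.77 in the twins, a difference of -1.54 ± 0.20 (adjusted p = 0.00941), and its dimmer probe fell by 1.21 (adjusted p = 0.0181). Groups did not overlap for the brighter probe.

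ASPM, a spindle-pole protein needed for symmetric division, was well above background in 4 of 4 twins and in 0 of 4 losartan fetuses. It entered the test only through these twins, since no other group was above background on all its arrays. Its mean was -2.67 ± 0.44 (SD, n = 4) in the twins and a measured -4.50 ± 0.77 (SD, n = 4) with losartan. Only a bound is therefore given: the level was at least 1.92-fold lower with losartan (adjusted p = 0.0455), the dim group being set, array by array, at the lowest signal that counted as well above background, or at its own signal where that was higher. ASPM did not pass with the slide as a further term, at a measured -1.71 (adjusted p = 0.107; 0.00102 to 0.536 over all alternatives). The median of the mitosis list was -1.95, or -1.81 with ASPM at its bound, against -0.04 over all named genes. By set, the list's median was -1.41 in set 1, -1.22 in set 2, -2.08 in set 3 and -3.16 in set 4, so the smallest difference came from the set whose twin array stood apart.

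Genes of DNA synthesis and the phases before mitosis split into 3 that fell and 9 that did not pass. Of the 12 measured members, 11 had an estimate below 0, and the median was -0.32. TYMS, thymidylate synthase, which makes thymidylate for DNA, read -1.50, -1.42, -2.06 and -2.71 with losartan and 0.09, -0.28, -0.04 and -0.18 in the twins. The groups were well separated, and all 8 arrays were above background. The difference was -1.82 ± 0.20 (adjusted p = 0.00286), a 3.53-fold lower level.

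CCNA2, cyclin A2, which acts in S phase and at entry into mitosis, read -3.40, -3.30, -4.07 and -4.59 with losartan and -1.88, -2.07, -2.10 and -1.78 in the twins. Only 1 losartan array was well above background, and the difference was -1.88 ± 0.22 (adjusted p = 0.00431). PCNA, the sliding clamp of DNA polymerase, differed by similar amounts in each set. It read -0.39, -0.45, -0.55 and -0.70 with losartan and 0.20, 0.35, 0.07 and 0.20 in the twins. That is a difference of -0.73 ± 0.11 (adjusted p = 0.0128) by the brighter probe, and both of its probes passed. Among those that did not pass, CCND2, a cyclin of G1, differed by -1.20 ± 0.28 (adjusted p = 0.0886) with its widest gap in set 2, -2.25. H2AZ1, a histone variant, differed by -0.41 (adjusted p = 0.242). In the reference gene table TYMS overlaps ENOSF1 and CCNA2 overlaps EXOSC9, and which transcript each probe reads was not settled here.

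**Figure D1:**
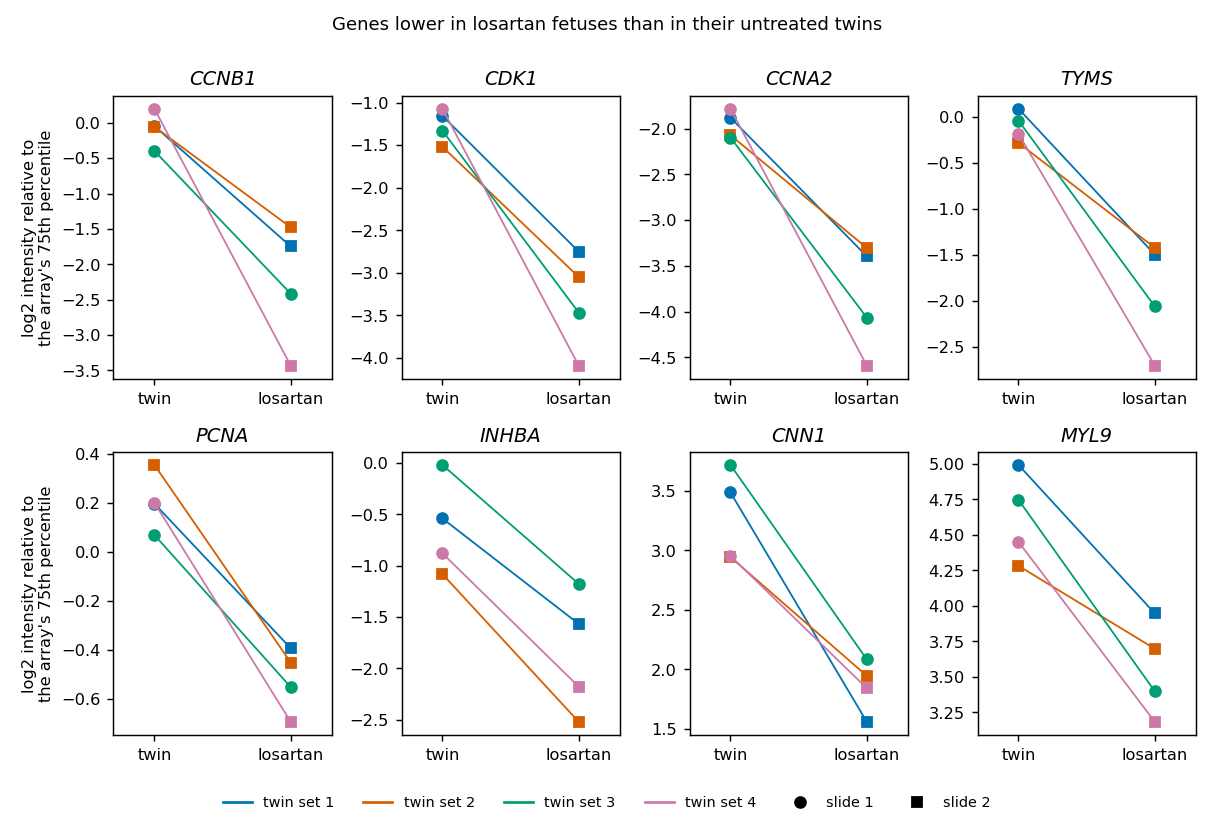
Log2 intensity relative to the array's 75th percentile (y axis) in the untreated twin and the losartan fetus (x axis) of each twin set, for 8 genes; each line joins a twin pair, and circles and squares mark slides 1 and 2. All lines slope down, steeply in set 4 for CCNB1, CDK1 and CCNA2 and almost in parallel for INHBA.

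INHBA fell in losartan hearts and was the only 1 of 16 measured genes of activin and TGF-beta signalling to pass. INHBA encodes the beta-A chain, 2 copies of which form activin A, a secreted signal of the TGF-beta family. It read -1.57, -2.52, -1.18 and -2.18 in losartan fetuses of sets 1 to 4 and -0.54, -1.08, -0.02 and -0.88 in their twins. Twin levels differed between sets, yet the pair differences were close to each other, at -1.03, -1.44, -1.16 and -1.30, whether the pair shared a slide or not. The fitted difference was -1.23 ± 0.11 (adjusted p = 0.00142), a 2.35-fold lower level. Its second probe, which shares 59 of 60 bases with the first, gave -1.32 and is no separate evidence. TGFB2, a TGF-beta ligand, differed by -1.13 ± 0.36 (adjusted p = 0.222), and only 1 losartan array was well above background for it. With the slide as a further term TGFB2 differed by -1.66 (adjusted p = 0.0247), while its adjusted p over the alternatives ran from 0.00306 to 0.562. FST, follistatin, which binds and blocks activin, differed by -0.50 ± 0.20 (adjusted p = 0.347). The list's median was -0.06.

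Of 3 measured contractile genes of smooth muscle, 2 fell, at a list median of -1.06. CNN1, calponin, an actin-binding protein of differentiated smooth muscle, read 1.56, 1.94, 2.08 and 1.84 with losartan and 3.49, 2.94, 3.72 and 2.95 in the twins. All losartan levels lay below all twin levels by a wide margin, and the difference was -1.42 ± 0.25 (adjusted p = 0.0249; 2.68-fold lower). MYL9, the regulatory myosin light chain of smooth muscle, read 3.95, 3.70, 3.40 and 3.18 with losartan and 4.99, 4.28, 4.75 and 4.45 in the twins. Its difference was -1.06 ± 0.14 (adjusted p = 0.00855), and its second probe, which shares no more than 5 bases in a row with the first, fell by 1.20 (adjusted p = 0.00987). The third measured member, MYLK, the kinase that phosphorylates this light chain, gave -0.35 ± 0.47 (adjusted p = 0.798), with pair differences of 1.75, -1.94, -0.82 and -0.41. With the slide as a further term CNN1 was at -1.35 (adjusted p = 0.0727; 0.00914 to 0.45 over all alternatives), MYL9 still passed, and no value of MYLK passed under any alternative. The mean level of the 3 smooth muscle genes ranged from 1.52 to 2.15 in losartan fetuses and from 2.45 to 3.31 in twins; the part of smooth muscle cell number in this was not tested.

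Genes of the extracellular matrix and its fibroblasts mostly had estimates below 0, but none passed in limma, with 6 at an unadjusted p under 0.05 (over all probes 12.3%). Of 16 measured, 15 were below 0 and 10 were lower in 4 of 4 sets, where 11.1% of all tested probes were. The median was -0.33, against -0.04 over all named genes. At an unadjusted p the smallest values belonged to TIMP1, CCN2, COL12A1 and VIM. TIMP1, an inhibitor of matrix metalloproteinases, differed by -0.45 ± 0.09 (adjusted p = 0.0519), with pair differences of -0.62, -0.47, -0.38 and -0.35. CCN2, a matricellular protein induced by TGF-beta and angiotensin, read -0.33, -0.45, -0.43 and -0.40 with losartan and 0.03, 0.97, 0.83 and 0.15 in the twins. Its groups did not overlap, yet the difference of -0.90 ± 0.20 did not pass (adjusted p = 0.0712). COL12A1, a collagen bound to fibrils, differed by -1.08 (adjusted p = 0.0913) and VIM, vimentin, by -0.47 (adjusted p = 0.11). SNAI2, a transcription factor of epithelial-mesenchymal transition, is no member of that list. It read -3.55, -3.69, -3.65 and -3.56 with losartan and -2.98, -3.12, -3.22 and -2.93 in the twins, a fall of 0.55 ± 0.11 (adjusted p = 0.0491) that did not pass with the slide as a further term (-0.57, adjusted p = 0.0908; 0.046 to 0.443 over all alternatives).

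Among 10 measured genes of insulin-like growth factor signalling, IGFBP2 alone passed. IGFBP2 binds the 2 insulin-like growth factors and is abundant in the fetus. Its levels were nearly constant across losartan fetuses, at 1.23, 1.24, 1.20 and 1.23, and 1.94, 1.93, 2.01 and 2.31 in the twins. The difference was -0.82 ± 0.14 (adjusted p = 0.0261). A second probe sharing 59 bases gave -0.84 without passing (adjusted p = 0.127), and with the slide as a further term the first gave -0.73 (adjusted p = 0.0817; 0.0199 to 0.504 over all alternatives). IGF1R, their signalling receptor, differed by -0.56 (adjusted p = 0.494), with -1.37 in set 2 and -0.35 to -0.17 in the others.

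SQLE, squalene monooxygenase, an early oxygen-requiring enzyme of cholesterol synthesis, fell. It read 0.06, -0.66, -0.60 and -0.74 with losartan and 0.95, -0.28, 0.26 and 0.63 in the twins, so the groups overlapped through the twin of set 2 although each pair fell. The difference was -0.87 ± 0.17 (adjusted p = 0.0482), and a second probe, sharing no more than 7 bases in a row, fell by 0.93 (adjusted p = 0.0207). SQLE did not pass with the slide as a further term, at -0.86 (adjusted p = 0.101; 0.0239 to 0.909 over all alternatives). ACLY, which makes cytosolic acetyl-CoA, gave -0.74 ± 0.28 (adjusted p = 0.315) and did not pass. MTHFD2, a mitochondrial enzyme of folate metabolism, fell by 1 of its 3 probes (-1.10, adjusted p = 0.0254), whereas the others gave -0.95 and -0.91 (adjusted p = 0.15 and 0.0671). The probe that passed was well above background in 4 of 4 twins and in 1 of 4 losartan fetuses. Fatty acid genes lay slightly above 0 in 8 of 9 cases, with a median of 0.13 and none past the test (1 at an unadjusted p under 0.05). LPL, lipoprotein lipase, which releases fatty acids from circulating lipoproteins, read 4.51, 4.42, 4.48 and 4.79 with losartan and 4.13, 3.48, 4.04 and 3.93 in the twins. The groups did not overlap, and the difference of 0.65 ± 0.15 did not pass (adjusted p = 0.0811).

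Transcription factors of the immediate response moved in both directions: 2 of 10 measured rose and 1 fell. MYC, a driver of growth and ribosome production, read 3.19, 3.42, 3.22 and 3.45 with losartan and 2.61, 2.68, 2.76 and 2.65 in the twins. Every losartan fetus lay above every twin. The difference was 0.65 ± 0.12 (adjusted p = 0.0323), a 1.56-fold rise, and its second probe rose by 0.67 (adjusted p = 0.0181). CEBPB, a basic leucine zipper factor of metabolism and inflammation, read -2.98, -2.25, -2.38 and -2.49 with losartan and -3.38, -3.70, -3.04 and -3.54 in the twins, with 2 of 4 twins well above background. Its difference was 0.89 ± 0.18 (adjusted p = 0.0491), with pair differences of 0.40, 1.45, 0.66 and 1.05.

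JUND, an AP-1 subunit linked to growth restraint in cardiac muscle, fell. It read -2.92, -2.75, -3.66 and -3.25 with losartan and -2.33, -2.16, -3.10 and -2.51 in the twins, with pair differences as even as those of INHBA, at -0.59, -0.60, -0.56 and -0.75. The difference was -0.62 ± 0.12 (adjusted p = 0.0357), although levels of the 2 groups overlapped. FOS, another AP-1 subunit, gave -0.82 ± 0.22 (adjusted p = 0.158). With the slide as a further term CEBPB passed (adjusted p = 0.0449; 0.0209 to 0.319 over its 21 alternatives, of which it passed in 5), whereas MYC was at 0.60 (adjusted p = 0.0914; 0.00689 to 0.394 over all alternatives) and JUND at -0.68 (adjusted p = 0.0585; 0.0185 to 0.43 over all alternatives).

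**Figure D2:**
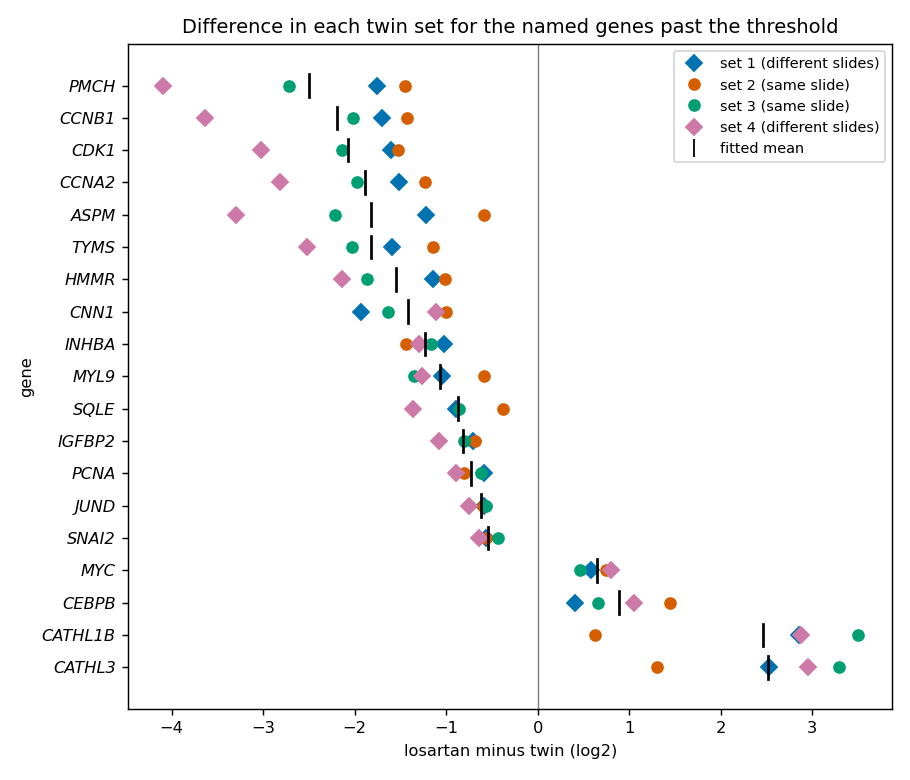
Losartan minus twin on the log2 scale (x axis) in each of 4 twin sets for the 19 named genes past the threshold by their brightest probe (y axis); circles are pairs on the same slide, diamonds pairs on different slides, and the bar is the fitted mean. Every point of a gene lies on the same side of 0, and set 4 is farthest left for CCNB1, CDK1, CCNA2, ASPM, TYMS and HMMR.

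Of 5 measured genes of neutrophil granules 2 rose, both cathelicidins and by the largest amounts of any named gene. These are antimicrobial peptides stored in the granules of neutrophils and made by their precursors. CATHL3 read 0.89, -0.65, 0.86 and 1.74 with losartan and -1.63, -1.96, -2.44 and -1.22 in the twins, a difference of 2.52 ± 0.44 (adjusted p = 0.0261; 5.74-fold higher). CATHL1B read 2.75, 0.83, 2.29 and 3.22 with losartan and -0.10, 0.21, -1.21 and 0.34 in the twins, a difference of 2.46 ± 0.49 (adjusted p = 0.0482). A second CATHL1B probe sharing 59 bases gave 2.41 (adjusted p = 0.0638). Levels rose in all 4 sets for both genes, the least in set 2.

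BAC5 read 1.20, -0.77, 0.81 and 1.78 with losartan and -1.58, -0.90, -2.60 and -0.81 in the twins, and did not pass (2.23 ± 0.55, adjusted p = 0.116). SC5 gave 2.19 ± 0.56 (adjusted p = 0.127), with pair differences of 2.63, 0.10, 3.29 and 2.74. In both, sets 1, 3 and 4 were higher by 2.60 to 3.41 and set 2 by 0.10 to 0.13. CXCL8, a neutrophil attractant and the fifth measured member of the granule list, differed by 0.07 (adjusted p = 0.929). With the slide as a further term CATHL3 gave 2.24 (adjusted p = 0.0823; 0.00895 to 0.363 over all alternatives) and CATHL1B 2.10 (adjusted p = 0.116; 0.0078 to 0.517).

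Markers of other blood cells were set beside these. Of 9 measured genes of macrophages, lymphocytes and leukocytes in general, 0 passed in limma at an adjusted p of 0.05 and 1 had an unadjusted p under 0.05; their median was -0.08, and their mean level ranged from -2.88 to -2.35 in losartan fetuses and from -2.63 to -2.38 in twins. CD3E, of the T cell receptor complex, gave -0.48 (adjusted p = 0.337). HBB, beta globin of red cells, read 1.64, 1.74, 2.72 and 4.69 with losartan and 1.17, 2.33, -0.58 and 3.27 in the twins, a difference of 1.15 ± 0.52 that did not pass (adjusted p = 0.413). HBB was lower with losartan in set 2 and higher in the other sets, with its widest gap in set 3. EPOR, the erythropoietin receptor and the only other measured gene of the red cell list, went the other way, at -0.21 (adjusted p = 0.758). The granule list had a mean level of -1.36 to 0.73 in losartan fetuses and of -2.61 to -1.52 in twins. The part of blood left in the tissue was not tested.

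**Figure D3:**
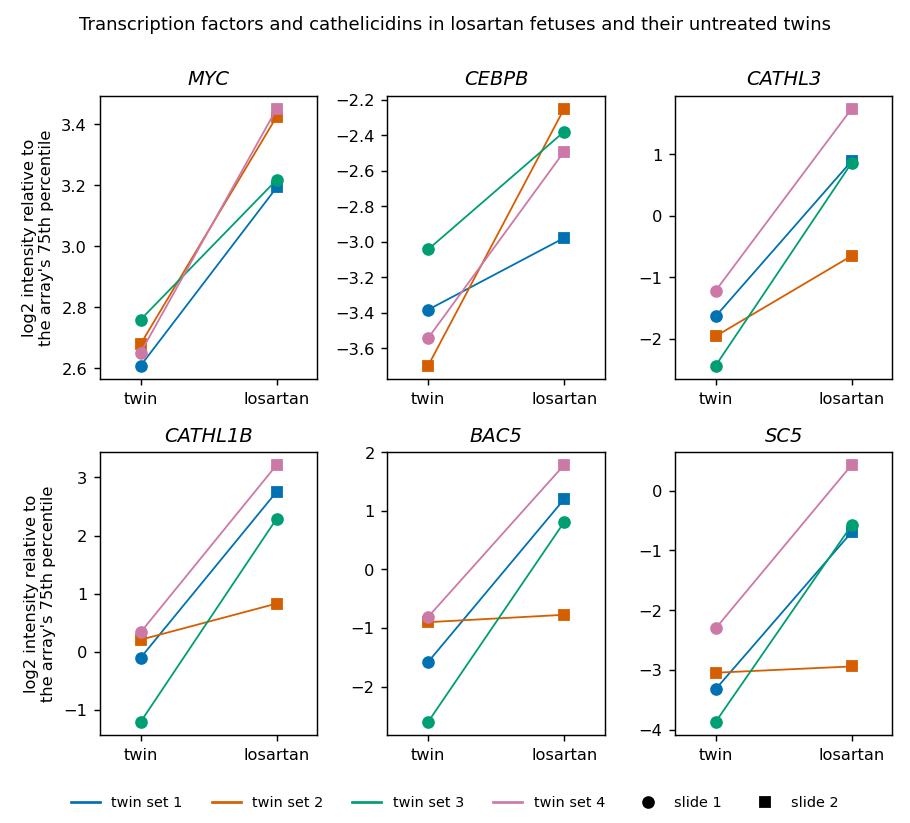
Log2 intensity relative to the array's 75th percentile (y axis) in the untreated twin and the losartan fetus (x axis) of each twin set for MYC, CEBPB and 4 cathelicidins; lines join twin pairs, and circles and squares mark slides 1 and 2. All lines slope up, and those of set 2 are nearly level for BAC5 and SC5, at 0.13 and 0.10.

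Interferon-induced genes had estimates below 0 in 9 of 9 measured, with a median of -0.49; none passed, and 3 had an unadjusted p under 0.05. The list's median was -0.02 with the slide as a further term, and in the authors' value table it was -0.065. MX1, a GTPase that blocks viruses, read 0.01, 0.49, -0.41 and -0.94 with losartan and 1.74, 0.77, 0.90 and 0.60 in the twins. The groups did not overlap, but pair differences ran from -1.73 to -0.28, and -1.22 ± 0.37 did not pass (adjusted p = 0.201). ISG15, a ubiquitin-like protein, gave -1.05 ± 0.45 (adjusted p = 0.39). CXCL10, a chemokine induced by interferon gamma, gave -1.29 ± 0.61 (adjusted p = 0.442), with pair differences of -2.73, 1.12, -1.10 and -2.44. With the slide term ISG15 was at -0.57 and CXCL10 at -0.58, and neither passed (adjusted p = 0.484 and 0.579; 0.137 to 0.846 and 0.0345 to 0.779 over all alternatives). PSMB8, an immunoproteasome subunit, was well above background in 4 of 4 twins and 0 of 4 losartan fetuses; the bound was at least 1.46-fold lower, and the test did not pass (adjusted p = 0.242). In this list set 2 had the opposite sign, with a median of 0.21 against -0.31, -0.53 and -0.73 in sets 1, 3 and 4.

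The receptors that losartan and angiotensin II act on were measured, and none of the 7 genes of the renin-angiotensin-aldosterone list passed in limma (1 at an unadjusted p under 0.05). AGTR1, the AT1 receptor itself, read 1.51, 1.02, 1.76 and 1.74 with losartan and 2.11, 1.77, 1.68 and 0.78 in the twins. The groups overlapped and pairs differed in both directions, at -0.59, -0.75, 0.08 and 0.95. The difference was -0.08 with a 95% interval from -0.66 to 0.50 (adjusted p = 0.93). Intervals here use the spread pooled over the losartan and angiotensin II pairs, not that of the losartan pairs alone. AGTR2, the AT2 receptor, read -1.89, -1.11, -0.91 and -1.50 with losartan and -2.51, -1.95, -0.97 and -0.92 in the twins, a difference of 0.23 with an interval from -0.24 to 0.70 (adjusted p = 0.697). NR3C2, the mineralocorticoid receptor, gave -0.07, interval -0.39 to 0.26 (adjusted p = 0.886). When the slide was a further term AGTR1 was at -0.33, NR3C2 at -0.275 and AGTR2 at 0.415, and none passed (adjusted p = 0.492, 0.213 and 0.328). Over all alternatives the adjusted p ran from 0.492 to 0.966 for AGTR1, from 0.0685 to 0.997 for NR3C2 and from 0.261 to 0.992 for AGTR2.

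HSD11B1, which regenerates active glucocorticoid, was higher in 4 of 4 sets, by 0.18, 0.30, 0.07 and 0.34. Its difference of 0.23 ± 0.09 did not pass (adjusted p = 0.375). The NADPH oxidase genes, whose enzymes make superoxide, gave 0.26 ± 0.14 for NOX5, -0.44 ± 0.23 for CYBB and -0.29 ± 0.13 for CYBA (adjusted p = 0.499, 0.471 and 0.426). With the slide term CYBB was at -0.73 (adjusted p = 0.119; 0.0169 to 0.918 over all alternatives). The 95% intervals of the 7 genes were 0.43 (HSD11B1) to 1.16 (AGTR1) wide from end to end. They rest on the spread pooled over the losartan and angiotensin II pairs. They are therefore not the precision of the 4 losartan pairs alone.

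Genes of heart muscle did not pass (0 of 4 sarcomere genes in limma, with 1 at an unadjusted p under 0.05). MYH7, the beta myosin heavy chain that predominates in the fetal ventricle of large mammals, read 1.43, 1.29, 0.74 and 0.78 with losartan and 1.42, 3.06, 1.22 and 1.34 in the twins. The twin of set 2, whose array stood apart, was far above the other twins, and that pair differed by -1.77 against -0.57 to 0.01 in the other 3. The fitted -0.70 ± 0.35 did not pass (adjusted p = 0.453), and without set 2 the estimate was -0.35. MYH7 was at -1.13 with the slide as a further term (adjusted p = 0.123), and in the authors' value table it was at -1.05 and passed (adjusted p = 0.0259); over all alternatives its adjusted p ran from 0.013 to 0.873. TNNC2, the troponin C of fast skeletal muscle, was high in the twins of sets 2 and 4 alone: it read -2.44, -1.89, -2.38 and -2.50 with losartan and -2.33, 1.85, -2.21 and 1.34 in the twins, and -1.97 ± 0.60 did not pass (adjusted p = 0.201). FHL1, a LIM protein of the sarcomere that rises with load, gave -0.36 ± 0.13 (adjusted p = 0.297). ADRB1, the beta-1 adrenergic receptor, gave -0.40 ± 0.15 (adjusted p = 0.298), and 0 of the 5 measured calcium and excitation genes passed (1 at an unadjusted p under 0.05).

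The remaining lists held no called gene by the brightest probe. Of 9 angiogenic and endothelial genes, the smallest p belonged to FGF1 and FGF7, fibroblast growth factors that stimulate vessels and epithelia. FGF1 gave 0.48 ± 0.11 (adjusted p = 0.0811), higher in 4 of 4 sets, and FGF7 gave 0.40 ± 0.12 (adjusted p = 0.187). Of 13 apoptosis and stress genes, MCL1, BAX and BCL2, regulators of the mitochondrial death pathway, gave -0.41, -0.42 and -0.73 (adjusted p = 0.235, 0.298 and 0.298). The 12 glycolysis genes had a median of -0.07, the 3 genes of oxidative phosphorylation 0.09 and the 23 ribosomal protein genes -0.03. Among 11 cytokine genes, PTGER3, the EP3 receptor for prostaglandin E2, fell by its dimmer probe (-0.55, adjusted p = 0.032), which did not pass with the slide term (-0.55, adjusted p = 0.0796; 0.0182 to 0.562 over all alternatives), and its brighter probe, sharing 58 bases, gave -0.51 (adjusted p = 0.0568). IL18 gave -0.63 ± 0.18 (adjusted p = 0.178).

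**Figure D4:**
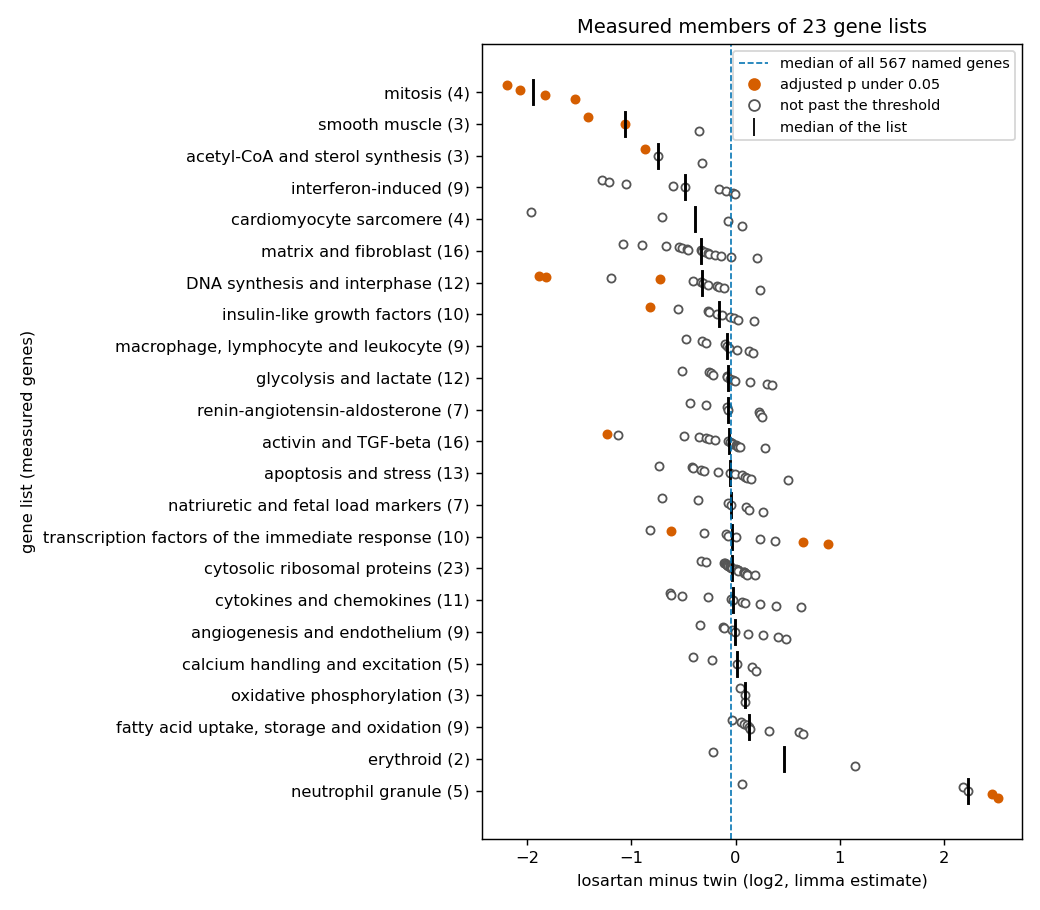
Losartan minus twin on the log2 scale (x axis) for every measured member of 23 gene lists (y axis, with the number measured), 1 circle per gene by its brightest probe; filled circles have an adjusted p under 0.05, bars are list medians and the dashed line is the median of all 567 named genes. The 4 mitosis genes are all filled, at -1.54 or lower, and 4 of 5 neutrophil granule genes lie at 2.19 or higher.

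A pair of probes named PMCH, the precursor of melanin-concentrating hormone, a neuropeptide, was well above background in 4 of 4 twins and 0 of 4 losartan fetuses. The brighter read -2.25, -2.27, -1.81 and -1.64 in the twins, with a mean of -1.99 ± 0.32 (SD, n = 4), against a measured mean of -4.50 ± 0.89 (SD, n = 4) with losartan. The bound was at least 3.06-fold lower (adjusted p = 0.0112). In the reference gene table PMCH overlaps PARPBP, a regulator of DNA repair, and which transcript these probes read was not settled here. Across all tested probes, 16 were well above background in 4 of 4 twins and 0 of 4 losartan fetuses. Of these, 11 passed the test, against 1.22% of all tested probes. The pattern itself picks probes that are dim with losartan, so this count is a description. The reverse pattern was seen for 1 probe, which did not pass. LMNB1, the gene of nuclear lamin B1, is named here after its value was seen: it had the first pattern, with at least 1.45-fold lower signal, and did not pass (adjusted p = 0.116).

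Most probes that passed have no gene name in the tables used here: 81 of 109, with 66 lower and 15 higher. Those with the largest falls are shown by the first 30 of their 60 bases, so that they can be matched to a transcript.
A_70_P061026: cctactttccattaatgatgtgcattaggc
A_70_P032271: gaggcctctcagtggagaacaaccagaaga
A_70_P061236: ttacaggcagtttggtcctaaggtttaaag
A_70_P018331: cagcaacagagctcagttaaatgcaactgc
Probe A_70_P061026 read -0.85, -1.0, -2.23 and -4.14 with losartan and 0.99, 0.37, 0.45 and 0.81 in the twins, a difference of -2.71 ± 0.46 (adjusted p = 0.0213). Set 4 was again the farthest apart and set 2 the closest. A_70_P032271 differed by -2.65, A_70_P061236 by -2.58 and A_70_P018331 by -2.38 (adjusted p = 0.0256, 0.0129 and 0.00664). Of these 4, A_70_P018331 alone was above background on all 8 arrays and alone passed with the slide as a further term. The 4 largest rises were smaller. A_70_P024671 rose by 1.08, A_70_P053906 by 0.98, A_70_P069796 by 0.93 and A_70_P009206 by 0.90.

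The falls had a shared shape across twin sets. Among the 89 lower probes, the largest fall was in set 4 for 70, in set 2 for 9, in set 3 for 7 and in set 1 for 3. The smallest was in set 2 for 47 and in set 1 for 30. Their median difference was -1.18 in set 1, -1.02 in set 2, -1.26 in set 3 and -1.69 in set 4. Of the pairs across slides, set 1 lay between the 2 pairs within a slide (sets 2 and 3), and set 4 lay below both. Over all tested probes the set medians ran from -0.01 to 0.04. Among the 20 higher probes the set medians were 0.64, 0.75, 0.66 and 0.90.

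The angiotensin II fetuses and their twins share no array with the losartan comparison, so the same probes could be read there. Both arms do share 1 estimate of the spread. The angiotensin II arrays that stood apart, together with the untreated twin of set 2, belong to sets 7 and 8. Angiotensin II activates the receptor that losartan blocks. No probe passed in that arm by limma (0 of 8970, with 938 at an unadjusted p under 0.05), and its estimates are given as a description. Of the 89 probes that were lower with losartan, 87 had an angiotensin II estimate above 0 (97.8%), against 45.4% of all tested probes; their median was 0.52 against -0.03. By set, 87.6%, 96.6%, 97.8% and 93.3% of them were above 0 in sets 5, 6, 7 and 8, where 45.2% to 49.5% of all probes were. The 89 share their arrays, and some read the same gene, so they are not independent. Of the 20 that were higher with losartan, 17 had an estimate below 0, with a median of -0.20. The cathelicidins were the named exceptions, at 0.46 for CATHL3 and 0.33 for CATHL1B, above 0 under both treatments.

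**Figure D5:**
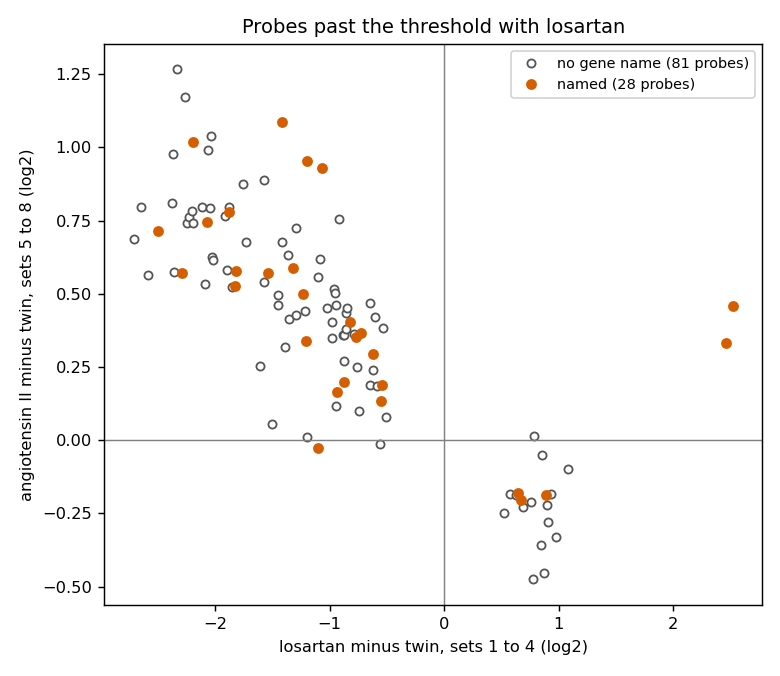
Fitted losartan minus twin difference in sets 1 to 4 (x axis, log2) against angiotensin II minus twin in sets 5 to 8 (y axis, log2) for the 109 probes past the threshold with losartan; filled circles have a gene name. The left group of 89 lies almost wholly above 0 on the y axis and the right group of 20 mostly below it, except for 2 cathelicidin probes at the far right.

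When the losartan effect was subtracted from that of angiotensin II, 95 of the 109 probes passed, against 1.65% of all tested probes; since the 109 were selected on their losartan values, this count is a description. Of the 21 named genes, 14 passed by their brightest probe. CCNB1 differed by 3.21 ± 0.42 (adjusted p = 0.00707), with angiotensin II at 1.02 ± 0.30 on its own. INHBA differed by 1.73 ± 0.15 (adjusted p = 0.00113), with angiotensin II at 0.50 ± 0.11. MYL9 differed by 1.99 ± 0.20 (adjusted p = 0.00207), with angiotensin II at 0.93 ± 0.14, close in size to its losartan value of -1.06. MYC differed by -0.83 ± 0.17 (adjusted p = 0.044). For CATHL3 the difference was -2.06 ± 0.63 and did not pass (adjusted p = 0.132). With the slide as a further term 15 of the 21 passed.

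Of the 19 named genes, CDK1, CCNA2, TYMS and INHBA passed in each of the fits that left out 1 of twin sets 1 to 4 and with the slide as a further term. CCNB1, HMMR and PMCH lost the call only without set 3 among these, and MYL9 and PCNA without sets 3 and 4. CNN1, CATHL3, CATHL1B, SQLE and ASPM passed without set 2 but not without any of the others, and MYC, CEBPB, JUND, IGFBP2 and SNAI2 passed in none of these 4 fits. Fits on 3 pairs also have fewer samples. When sets 1 to 4 were fitted alone, CDK1, CCNA2, TYMS, INHBA, HMMR, CNN1 and CATHL3 passed, and the other named genes did not.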

How the data were processed

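Left ventricular RNA of 16 fetuses was read on 1-colour Agilent arrays (Cy5). The deposited red processed intensity came from Agilent Feature Extraction (version 10.7.3.1), background-subtracted by that program, per the file headers; the authors' value table lies close to a natural log of the mean signal, with its method not given in the sources used here. From the intensity of non-control spots, log2 minus the array's 75th percentile was computed and spots of a probe were averaged. Probes that any of the 4 groups showed well above background on all its arrays were fitted with limma (version 3.58.1): twin set as 8 blocks and 1 term per treatment over all 16 arrays, with moderated statistics and Benjamini-Hochberg adjustment over 8970 probes (threshold 0.05). A gene with several probes is given by the brightest, unless stated. ± values are standard errors of the fit unless marked SD, with the spread pooled over both arms. Pairing comes from the labels, which give co-twins a shared set number; co-twins' deviations from their groups correlated with r = 0.221, 0.239, 0.46 and 0.078 in sets 1 to 4. The members and gene lists were chosen with earlier results of these data known. Named are all genes past the threshold, up to 4 further members of a list by smallest p, every measured renin-angiotensin gene and MYH7, and 4 rises and 4 falls among unnamed probes. Probes were named through symbols, accessions, gene identifiers and sequence clusters in the files and the RefSeq gene table (assembly ARS-UI_Ramb_v3.0), 1753 of 15008; the table's coordinates were used only to find overlapping genes. In 8965 simulated probes with this design, limma recovered 89 of 100 changes of 1 and 99 of 100 of 2 on the log2 scale, with 8 false calls among 196. The simulated noise was normal and independent between probes, without slide effects, arrays standing apart or a background floor. These rates therefore need not hold for the real arrays. Depth does not apply to arrays; their number limits precision. Twins are separate fetuses, and p-values measure the spread of treated minus twin differences between twin sets, pooled over both arms. The promoter motif search planned at the outset was not run. Alternatives covered background, scaling, filter, blocks, slide and left-out sets.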

Additional observations from a re-analysis of the deposited data

Results flagged for a closer look

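Dixon's rule for 4 values, which flags about 1 group in 20 by chance, was applied to 118 groups of 4 for genes named above. About that share of groups held a fetus far from the others. Of the flagged values, 3 were in the untreated twin of set 2, whose array stood apart. They were MYH7 at 3.06 (the others 1.22 to 1.42), TGFB2 at -1.71 (-3.35 to -3.24) and CD3E at -2.06 (-3.34 to -3.13). The losartan fetus of set 2 was far from its group for ACLY, at -1.53 (-2.04 to -2.0). The losartan fetus of set 4 was far for CYBA, at -2.51 (-2.20 to -2.15), and the twin of set 4 for MCL1, at -1.43 (-1.33 to -1.31).

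For 14 named genes the effects of the 2 treatments differed by limma's test of the difference (angiotensin II minus losartan, log2 ± SE). The cell cycle genes differed by 2.66 ± 0.31 (CCNA2), 3.21 ± 0.42 (CCNB1), 2.82 ± 0.31 (CDK1), 2.11 ± 0.30 (HMMR), 1.09 ± 0.15 (PCNA) and 2.40 ± 0.28 (TYMS). The smooth muscle genes differed by 2.51 ± 0.35 (CNN1) and 1.99 ± 0.20 (MYL9). INHBA differed by 1.73 ± 0.15, IGFBP2 by 1.22 ± 0.20, PMCH by 3.22 ± 0.51, JUND by 0.92 ± 0.17 and SNAI2 by 0.74 ± 0.15. MYC differed by -0.83 ± 0.17. These genes were selected on the losartan effect, which is part of the difference.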

How the results depend on the processing

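The 109 called probes and 19 called genes became 57 and 9 when probes had to be above background on all 16 arrays, 71 and 11 with the slide as a further block, 68 and 11 with the twin set as a random block, 34 and 7 with the losartan arm alone, and 0 and 0 with no replicate block. With the authors' value table they were 434 and 45, with 58.3% lower calls against 81.7%, and 12 genes were called with no filter on dim probes. Within slide 1, which holds 1 losartan fetus against 3 untreated twins, they were 42 and 8; within slide 2, where the losartan arm has a single untreated twin, 546 and 40, sharing 1 probe with the 109. Leaving out 1 twin set gave 33 to 98 probes (64 without set 1, 49 without set 4) and 5 to 17 genes. The share of lower calls rose from 81.7% to 91.5% with the slide block, 90.6% with slide and array row, 91.7% with no filter, and 93.9% to 98% without sets 3, 1 or 4. No named gene past the threshold changed sign under any alternative, but sizes moved. In the authors' value table CDK1 was at -1.33 (main fit -2.07), CCNA2 at -1.15 (-1.88), PMCH at -1.24 (-2.50) and ASPM at -0.89 (-1.83). The median of the mitosis list was -1.37 there. Of the 19 genes, only CNN1 and MYL9 were farther from 0 in that table than in the main fit. Of genes that had not passed, AGTR1 was 0.233 within slide 1, 0.091 without set 1 and 0.145 without set 2 or without sets 2, 7 and 8; MYLK was 0.454 within slide 1 and 0.173 without set 2 or sets 2, 7 and 8; NR3C2 was 0.037 without set 2 or sets 2, 7 and 8 and 0.002 without set 3; FHL1 was 0.013 within slide 1; HSD11B1 was -0.073 within slide 2. Over all 16 arrays, no probe was called without the replicate block by twin set, whereas the fits within a slide had no such block. The causes were not tested beyond fewer samples or probes where these were left out. Median scaling moved the median of all probes to 0.05. Signal over background limits ASPM, PMCH, CCNA2, CDK1, SNAI2, TGFB2 and the passing probe of MTHFD2, which were dim with losartan.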
